A study of Mus musculus with 6 samples.

Results

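The genes described here are 10 components of signalling by transforming growth factor beta (TGF-beta) in mouse embryonic stem cells (mESCs). They are the ligand genes Tgfb1, Tgfb2 and Tgfb3, the latency protein genes Ltbp1 and Ltbp3, the receptor genes Tgfbr1, Tgfbr2 and Tgfbr3, and the signal transducers Smad3 and Smad4. They were matched to the platform annotation by their symbols, with no filter on measured values. The choice of these 10 genes was made with earlier results of these data known. They make up 10 of the 18193 genes and 28 of the 45037 probe sets on the arrays. A probe set is the group of short probes whose signals were summarised into a single value.

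All cells came from a feeder-free mESC line in which both Dicer1 alleles are flanked by loxP sites, and were grown in serum with LIF on gelatin. Control cells (Dcr WT, 3 arrays) were transfected with GFP alone. Dicer null cells (Dcr KO, 3 arrays) received GFP together with Cre, the recombinase that cuts out sequence between loxP sites. RNA was taken 5 days after transfection, from a polyclonal population that the study describes as mostly Dicer null by then. No arm received Cre without the deletion, so Cre itself and the loss of Dicer cannot be told apart. The methods call the arrays biological triplicates, and their number limits the precision. Because these are bulk samples, fewer cells expressing a gene and less RNA per cell cannot be told apart.

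TGF-beta ligands are secreted in a latent form, in which the cleaved propeptide still wraps the growth factor and is tethered to the extracellular matrix by latent TGF-beta binding proteins. Once released, the dimer binds the type II receptor Tgfbr2, which phosphorylates the type I receptor Tgfbr1. Tgfbr3, also called betaglycan, presents ligand to the pair and is of most weight for the product of Tgfb2, which binds Tgfbr2 poorly on its own. Tgfbr1 then phosphorylates Smad2 and Smad3, which join Smad4 and enter the nucleus. In mESCs the same Smads also carry signals of Nodal and activin.

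Dicer cuts hairpin precursors into mature microRNAs, so its loss removes the microRNAs of the cell. The study followed those with the seed AAGUGC, which come from the mir-290 cluster and, with the same or a shifted seed, from the mir-302 and mir-17-92 clusters. Tgfbr1 and Tgfbr2 stand among the candidate targets that the study named for this seed. Those candidates were chosen in part for a rise on these same arrays, so the direction of both receptors is not independent evidence. The mature sequences below, from the RefSeq table of GRCm38.p6, show part of what the Dcr KO cells are meant to lack. Others that the study names, such as miR-292-3p and miR-467a, are not printed. Bases 2 to 8, the seed, are in capitals. Whether the transcripts of the 10 genes carry matching sites was not analysed here.
mmu-miR-291a-3p: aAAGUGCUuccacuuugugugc
mmu-miR-294-3p: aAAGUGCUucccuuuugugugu
mmu-miR-295-3p: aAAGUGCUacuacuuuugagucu
mmu-miR-302b-3p: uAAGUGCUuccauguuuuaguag
mmu-miR-302d-3p: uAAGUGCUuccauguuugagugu
mmu-miR-290a-3p: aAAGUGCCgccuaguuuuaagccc
mmu-miR-291b-3p: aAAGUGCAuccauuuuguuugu
mmu-miR-17-5p: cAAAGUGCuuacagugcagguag
mmu-miR-20a-5p: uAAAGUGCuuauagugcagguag
The first 5 share their bases 2 to 8. In miR-290a-3p and miR-291b-3p the last base of the seed differs, and in miR-17-5p and miR-20a-5p the AAGUGC run starts a base later. In GRCm38.p6 miR-290a-3p lies at chr7:3218674-3218697 and miR-295-3p at chr7:3220815-3220837, both on the plus strand and annotated as miRNA genes.

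Dicer1 was read by 2 probe sets, and on both the Dcr KO arrays lay under all Dcr WT arrays. On the brighter one the Dcr WT log2 levels were 8.29, 8.51 and 7.82 and the Dcr KO log2 levels 6.39, 6.76 and 5.95 (log2 difference -1.84, standard error, SE, 0.25, adjusted p = 0.0138 over probe sets from limma). It did not pass when Dcr WT replicate 1 was left out (adjusted p = 0.0533), and the dimmer one, with a log2 difference of -0.82, did not pass in the fit of all arrays (adjusted p = 0.0908) or in any with 1 array left out. The mean of both probe sets passed in all 6 fits with 1 array left out. The stem cell identity of both groups was checked on markers. All 9 pluripotency genes on the list had means above the minimum of 4 on the log2 scale in both groups, and none of them passed limma's test in either direction (5 of the 9 had an unadjusted p under 0.05). Markers of other cell types were mostly near background. None of 9 fibroblast genes was above the minimum in Dcr WT and 2 were in Dcr KO (Col1a1 at 4.16 and Col3a1 at 4.21), while of 8 primitive endoderm genes only Dab2 was, in both groups. The same held for 2 of 5 primitive streak genes and 2 of 5 trophectoderm genes in both groups, with no call among them by limma (1 unadjusted p under 0.05 in each list). Mixl1 was at 5.7 in Dcr WT and 5.0 in Dcr KO, and Eomes at 6.2 and 6.0. Krt7 was at 8.2 in both groups, and Gata3 at 4.3 and 5.1. The groups did not overlap for Mixl1 and Gata3. Of 6 macrophage and endothelial genes, Pecam1 rose by 1.70 and Tek by 1.55 on the log2 scale, so that the summed signal of the list went from 110 to 164 in Dcr WT to 246 to 393 in Dcr KO. Cd68 from that list, at 5.58 and 5.88, did not pass, and Ptprc, Csf1r and Cdh5 were at 2.04 or below in both groups. Pecam1 is itself among the study's candidate targets of the AAGUGC seed, so its direction is not independent evidence. Of 5 neural genes Tubb3 rose by 0.73, with a summed signal of 323 to 375 in Dcr WT and 522 to 601 in Dcr KO, while Nes, at 4.09 and 4.01, did not pass. Sox1, at 2.40 and 3.30, and Pax6, at 2.33 and 2.92, were under the minimum and not tested, without overlap between groups. The part of such cells in the results below was not tested.

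Among the ligands, Tgfb2 rose and Tgfb1 fell on its bright probe set, while Tgfb3 lay near background in both groups. Among the receptors, the brightest probe sets of Tgfbr1 and Tgfbr2 rose. For the latency proteins and the Smads no probe set passed the test. The gene value, the mean over all probe sets of a gene, was tested with limma where its average across the 6 arrays reached 4 on the log2 scale, which is 16 on the linear scale. This held for 5 of the 10 genes (Tgfb2, Tgfbr1, Ltbp1, Smad3 and Smad4). Of these Tgfb2 was higher in Dcr KO, none was lower (1 at an unadjusted p under 0.05), and the other 4 did not pass, where 13.3% of the 8782 genes tested passed in either direction, 6.91% of them higher and 6.42% lower. In 4 of the 5 the groups did not overlap, against 38.9% of the genes tested. Tgfb1, Tgfb3, Tgfbr2, Tgfbr3 and Ltbp3 were under the minimum as gene values and were not tested at that level.

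The probe sets of a gene differed widely in brightness, and 13 of the 28 had means of 1.66 to 3.90 on the log2 scale, under the minimum. The other 15 covered 9 of the 10 genes, all but Tgfb3. Tested over all probe sets, 4 of the 15 were higher in Dcr KO and 1 was lower, with 10 that did not pass. Over the 18789 probe sets tested, 4.69% were higher and 3.07% lower, 7.75% in all. The groups did not overlap in 11 of the 15, against 35.7% of all probe sets tested. The median log2 difference of the 15 was 0.65, and over all probe sets tested it was -0.01. The 15 are not independent, since 4 are of Tgfb2, 3 of Smad4 and 2 of Tgfbr1. For the tested gene values of the 10 genes the median was 0.42, and over all genes tested it was -0.02. Of the 10 tested probe sets with a higher mean in Dcr KO, 8 had their highest Dcr KO value on replicate 3, 1 on replicate 1 and 1 on replicate 2. That count was not made over all probe sets, and its cause was not tested. Since dim probe sets pull a gene's mean towards background, each gene is given below by its probe sets.

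**Figure D1:**
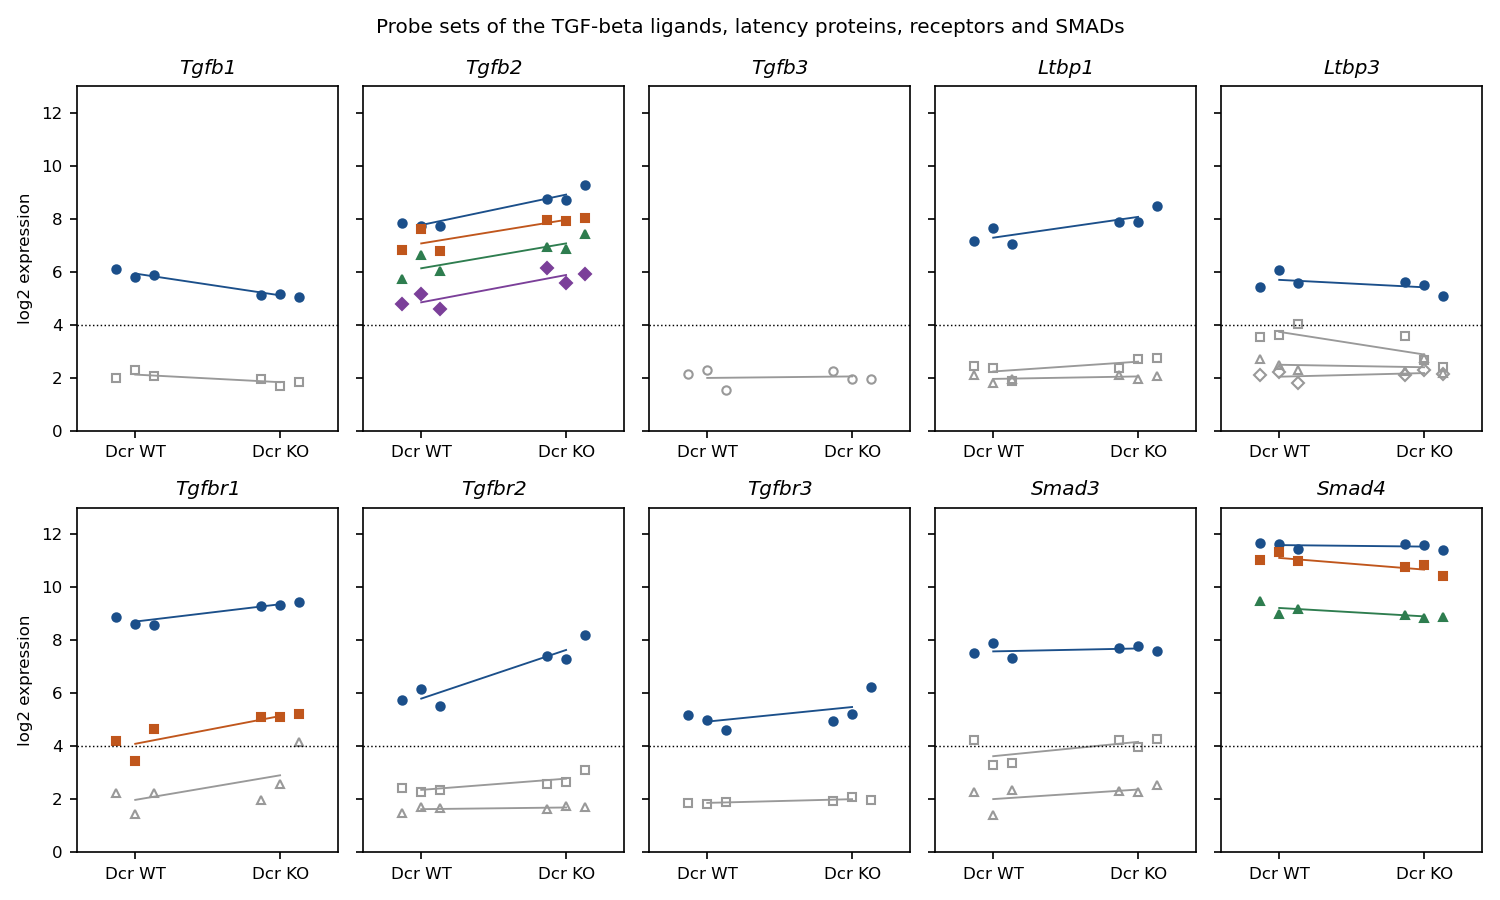
Log2 expression of every probe set of the 10 genes on each array (points, 1 per array, replicates 1 to 3 from left to right in each group; lines join group means; n = 3 per group). Filled coloured symbols are the 15 probe sets whose average reached 4 (dotted line), and grey open symbols the 13 under it. The bright probe set of Tgfbr2 slopes up most, by 1.83, and that of Tgfb1 slopes down, by 0.82 on the log2 scale.

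Tgfb2 encodes a ligand best known for its roles in the developing heart, eye and craniofacial tissue. Its gene value was 6.29, 6.78 and 6.28 on the log2 scale on the Dcr WT arrays and 7.43, 7.26 and 7.67 on the Dcr KO arrays, without overlap. That is a 2.00-fold rise (log2 difference 1.00, SE 0.17, adjusted p = 0.0122 from limma over genes). All 4 of its probe sets were above the minimum, and on each of them all Dcr KO arrays were above all Dcr WT arrays. The brightest, 1450922_a_at, had log2 levels of 7.82, 7.74 and 7.72 in Dcr WT and 8.74, 8.70 and 9.28 in Dcr KO, a 2.21-fold rise (log2 difference 1.15, adjusted p = 0.0168 from limma over probe sets). The dimmest, 1438303_at, with levels of 4.78, 5.16 and 4.60 against 6.13, 5.59 and 5.91, rose 2.04-fold (log2 difference 1.03, adjusted p = 0.0311). The remaining 2 had log2 differences of 0.89 and 0.94 and did not pass (adjusted p = 0.0604 and adjusted p = 0.0752 from limma). Their Dcr WT replicate 2 stood closer to the Dcr KO arrays than the other Dcr WT arrays did, at 7.60 against 6.83 and 6.77 on 1450923_at.

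The gene value of Tgfb2 passed in 5 of the 6 fits that leave out 1 array, with log2 differences of 0.89 to 1.17, and missed the threshold without Dcr WT replicate 3 (adjusted p = 0.0526 from limma). The calls of its probe sets held less often. That of 1450922_a_at was kept in 3 of the 6 fits (highest adjusted p = 0.0658 from limma). That of 1438303_at was kept in 1 (highest adjusted p = 0.0923). The differences of its 4 probe sets were not told apart by limma's diffSplice, which tests each probe set against the others of its gene (adjusted p = 0.986 for the gene). None of the 3 genes here with at least 2 tested probe sets, Tgfb2, Tgfbr1 and Smad4, passed that test, against 0.972% of the 4220 genes it could be run on. Among the 8782 genes, those whose 6 values ran closest to Tgfb2, after each gene's own mean was taken off, were Bmp2k, a kinase gene named for its induction by BMP2, Rtn1, which encodes a reticulon of the endoplasmic reticulum, and Cc2d1a. Their root mean square distances from Tgfb2 were 0.087, 0.10 and 0.11 on the log2 scale over 6 arrays. Bmp2k, Rtn1 and Cc2d1a are among the study's candidate targets of the AAGUGC seed, chosen in part for a rise on these same arrays. Their rise is therefore not independent evidence.

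Tgfb1 encodes the ligand that is most widely expressed in adult tissues. Its bright probe set, 1420653_at, had log2 levels of 6.09, 5.82 and 5.88 in Dcr WT and 5.11, 5.16 and 5.06 in Dcr KO. The Dcr KO arrays lay close together and under every Dcr WT array. The level fell to 56.6% of that in Dcr WT (log2 difference -0.82, SE 0.12, adjusted p = 0.0145 from limma over probe sets). The second probe set, 1445360_at, was near background at 2.12 ± 0.14 (SD, n = 3) and 1.84 ± 0.12 (SD, n = 3), also without overlap, and was not tested. The gene value was therefore 4.03 in Dcr WT and 3.47 in Dcr KO, with a log2 difference of -0.55. Leaving out Dcr WT replicate 3, or either of Dcr KO replicates 1 and 2, cost the bright probe set its call (highest adjusted p = 0.0661 from limma), with log2 differences of -0.88 to -0.74 over the 6 fits.

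Tgfb3, a ligand known for its part in palate fusion, has a single probe set. Its log2 levels were 2.14, 2.30 and 1.55 in Dcr WT and 2.25, 1.96 and 1.95 in Dcr KO. These overlap, and the probe set was not tested.

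Ltbp1 and Ltbp3 encode proteins that bind the propeptide of the ligands and anchor it in the matrix. On the bright probe set of Ltbp1, 1448870_at, the Dcr WT log2 levels were 7.16, 7.66 and 7.03 and the Dcr KO levels 7.86, 7.88 and 8.46. The groups did not overlap, but the log2 difference of 0.78 (95% limits 0.24 to 1.33) did not pass (adjusted p = 0.0847 from limma over probe sets). Its other 2 probe sets were at 2.61 or below in both groups, and the gene value, with a log2 difference of 0.42, did not pass either (adjusted p = 0.0737). That gene value was over the minimum only through the Dcr KO arrays, with means of 3.83 in Dcr WT and 4.24 in Dcr KO.

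For Ltbp3 the bright probe set, 1438312_s_at, read 5.44, 6.06 and 5.58 in Dcr WT and 5.63, 5.51 and 5.10 in Dcr KO, which overlap (log2 difference -0.28, 95% limits -0.78 to 0.22, adjusted p = 0.421 from limma). The ending _s_at marks a probe set that may detect more than its named transcript. Its next probe set, 1418049_at, was under the minimum, with levels of 3.55, 3.62 and 4.03 against 3.56, 2.68 and 2.40. The other 2 probe sets of Ltbp3 differed by -0.09 and 0.14 between groups.

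Tgfbr2 encodes the type II receptor that binds ligand, and its bright probe set had the largest difference among the 15 tested. On 1426397_at the log2 levels were 5.73, 6.16 and 5.50 in Dcr WT and 7.40, 7.30 and 8.19 in Dcr KO. Every Dcr KO array was above every Dcr WT array, and Dcr KO replicate 3 was the highest of the 6. This is a 3.56-fold rise (log2 difference 1.83, SE 0.28, 95% limits 1.18 to 2.49, adjusted p = 0.0168 from limma over probe sets). Leaving out either of Dcr WT replicates 1 and 3, or Dcr KO replicate 2, cost it its call (highest adjusted p = 0.0661 from limma). The log2 difference was 1.55 to 2.02 over the 6 fits with 1 array left out.

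The other 2 probe sets of Tgfbr2 were near background. 1425444_a_at had levels of 2.43, 2.29 and 2.35 in Dcr WT and 2.58, 2.64 and 3.12 in Dcr KO, without overlap, and 1422019_at had 1.63 ± 0.12 (SD, n = 3) and 1.69 ± 0.07 (SD, n = 3). Because of them the gene value was 3.26 in Dcr WT and 4.03 in Dcr KO, under the minimum over all arrays. Where these probe sets lie in the transcript was not analysed here.

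Tgfbr1 encodes the type I receptor kinase, also called Alk5. Its bright probe set, 1420895_at, had log2 levels of 8.89, 8.62 and 8.59 in Dcr WT and 9.30, 9.31 and 9.45 in Dcr KO, a 1.57-fold rise without overlap (log2 difference 0.65, SE 0.13, adjusted p = 0.0310 from limma over probe sets). The spread within each group was small, with SDs of 0.17 and 0.08. A dimmer probe set, 1420894_at, read 4.19, 3.44 and 4.65 in Dcr WT and 5.10, 5.11 and 5.21 in Dcr KO. It also did not overlap, but Dcr WT varied more there, with an SD of 0.61, and the log2 difference of 1.05 did not pass (adjusted p = 0.0718).

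The dimmest probe set of Tgfbr1, 1420893_a_at, was at 2.25, 1.44 and 2.25 in Dcr WT and 1.96, 2.59 and 4.17 in Dcr KO, so that its difference of 0.93 rested on Dcr KO replicate 3. With it included, the gene value had a log2 difference of 0.88 (SE 0.25) and missed the threshold (adjusted p = 0.0556 from limma over genes). The call of the bright probe set held in 1 of the 6 fits with 1 array left out, that without Dcr WT replicate 1, with log2 differences of 0.60 to 0.75 and a highest adjusted p of 0.105 over those 6 limma fits. The tested pair of probe sets was not told apart in its change (adjusted p = 0.867 from diffSplice).

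Tgfbr3 encodes the co-receptor betaglycan, which has no kinase. On its bright probe set, 1433795_at, the log2 levels were 5.18, 4.98 and 4.63 in Dcr WT and 4.96, 5.23 and 6.25 in Dcr KO. The groups overlap, and Dcr KO replicate 3 alone stood above all Dcr WT arrays by more than the spread of that group. The log2 difference of 0.55 (95% limits -0.25 to 1.35) did not pass (adjusted p = 0.331 from limma), and it was 0.17 without that array. The second probe set was at 1.87 and 2.01.

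Smad3, which with Smad2 is the receptor-regulated Smad of this pathway, differed little between groups on its bright probe set. On 1454960_at the Dcr WT arrays read 7.51, 7.91 and 7.31 and the Dcr KO arrays 7.70, 7.77 and 7.59, with the Dcr KO values inside the Dcr WT range. The log2 difference was 0.11 with 95% limits of -0.29 to 0.51 (adjusted p = 0.699 from limma), so a change of 2-fold lies outside the limits. Its gene value differed by 0.34 (adjusted p = 0.135), through 2 probe sets under the minimum whose Dcr WT values had SDs of 0.53 and 0.51.

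Smad4, the partner shared by all receptor-regulated Smads, was bright on all 3 probe sets. The brightest, 1422487_at, read 11.68, 11.64 and 11.43 in Dcr WT and 11.61, 11.57 and 11.40 in Dcr KO, with a log2 difference of -0.06 and 95% limits of -0.35 to 0.23. The next, 1422486_a_at, had 11.01, 11.31 and 10.98 against 10.75, 10.82 and 10.41 without overlap, and the third, 1422485_at, 9.48, 8.97 and 9.19 against 8.96, 8.85 and 8.88. Their log2 differences of -0.44 and -0.32 did not pass (adjusted p = 0.130 and adjusted p = 0.222 from limma), nor did that of the gene value, -0.27 (95% limits -0.52 to -0.02, adjusted p = 0.128). The 3 probe sets were not told apart in their change (adjusted p = 0.815 from diffSplice).

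**Figure D2:**
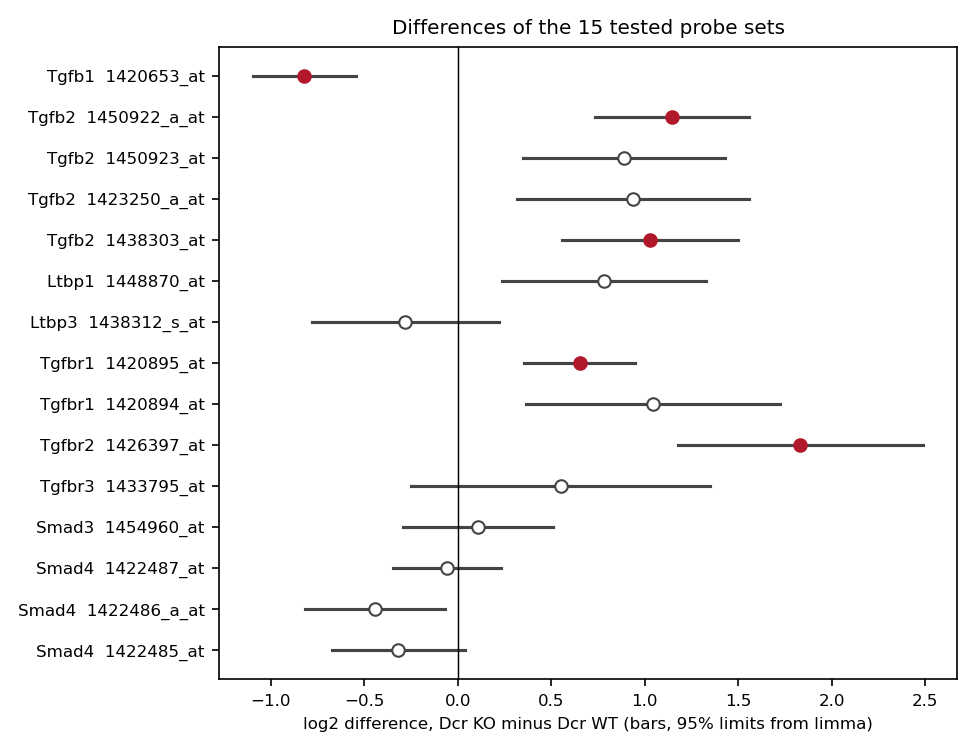
Difference on the log2 scale (Dcr KO less Dcr WT) of the 15 tested probe sets (points) with 95% limits from limma (bars). Filled points passed at an adjusted p under 0.05 over all probe sets tested: 4 higher (2 of Tgfb2 and 1 each of Tgfbr1 and Tgfbr2) and 1 lower (Tgfb1).

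How probe sets were joined decided which genes passed. With the brightest probe set of each gene in place of the mean, 5 genes passed in limma, namely Tgfb1 (adjusted p = 0.00552), Tgfb2 (0.00627), Tgfbr1 (0.0148), Tgfbr2 (0.00619) and Ltbp1 (0.0492), where 15.7% of the 9702 genes tested did. With the mean of only those probe sets above the minimum, a setting added after the values were seen, Ltbp1 missed the threshold (adjusted p = 0.0526) and the other 4 passed, where 14.4% of genes did. With the mean of all probe sets and no minimum, Tgfb1, Tgfb2 and Tgfbr2 passed, where 7.13% of genes did. The direction of each gene was the same under the 4 ways of joining probe sets, of which Tgfb3, with no probe set above the minimum, has 3.

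**Figure D3:**
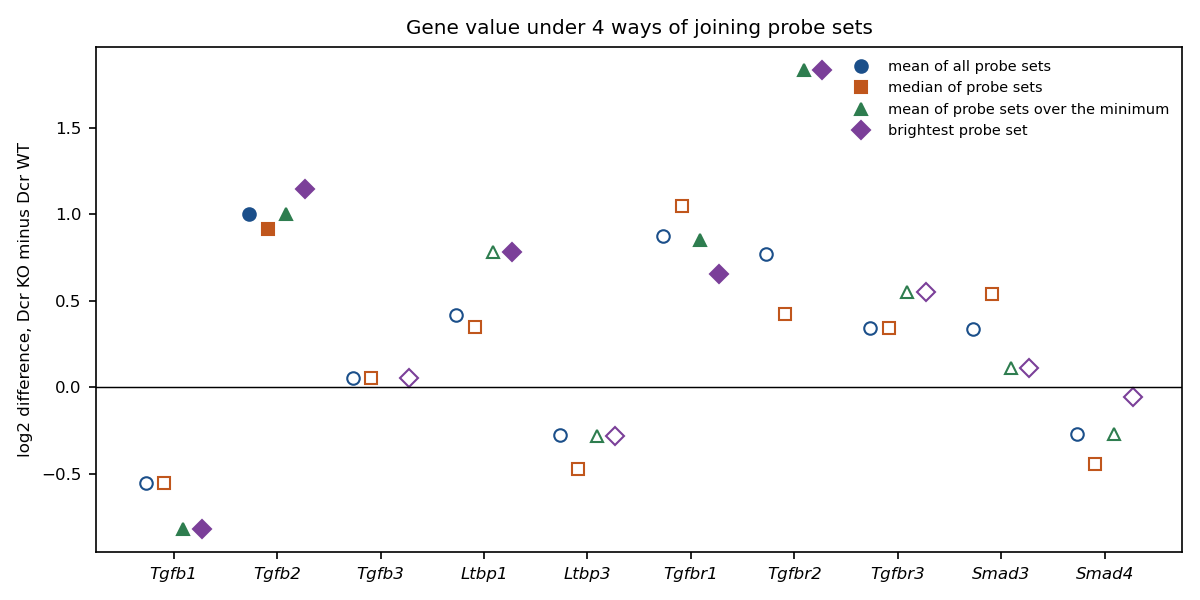
Difference on the log2 scale (Dcr KO less Dcr WT) for every gene under 4 ways of joining its probe sets (symbols; filled, adjusted p under 0.05 from limma; open, not passed or under the minimum and not tested; n = 3 arrays per group). Tgfb2 is filled under all 4, Tgfb1, Tgfbr1 and Tgfbr2 are filled where dim probe sets are left out, Ltbp1 is filled with its brightest alone, and Tgfb3, Ltbp3, Tgfbr3, Smad3 and Smad4 are open throughout.

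The other genes of the pathway were grouped by role into 6 lists, which hold 132 further genes of the arrays, 102 of them tested. By limma, 13 of the 102 rose, 5 fell and 84 did not pass, where 6.91% of all genes tested were higher and 6.42% lower. Their median log2 difference was 0.09, and that of all genes tested was -0.02. The 18 calls were 11 without Dcr WT replicate 2, 5 without Dcr WT replicate 3 and 2 without Dcr KO replicate 2, and over all genes the calls fell to 220 higher and 137 lower without that last array.

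Of 12 tested genes of latency and activation, 3 were higher and 2 lower, beside 6.91% and 6.42% over all genes. Thbs1, which encodes thrombospondin 1, an activator of latent ligand, rose 1.57 on the log2 scale from 8.12 ± 0.62 (SD, n = 3), with an adjusted p of 0.0389 from limma in the 6-array fit. Itgb8, the beta subunit of an integrin that releases active ligand, rose 0.86 (adjusted p = 0.0151), and Mmp14, a membrane-bound matrix protease, rose 0.51 (adjusted p = 0.0311). Bgn, which encodes the matrix proteoglycan biglycan, fell by 0.79 and Mmp2, a secreted gelatinase, fell by 0.71 on the log2 scale. Bgn was over the minimum only through the Dcr WT arrays, with means of 4.67 and 3.88. With the brightest probe set alone, neither Bgn (log2 difference -0.46, adjusted p = 0.138 from limma) nor Mmp14 (0.35, adjusted p = 0.180) passed. Itgb8 held in 4 of the 6 fits with 1 array left out, Bgn in 3, Thbs1 in 2 and Mmp2 and Mmp14 in 1 each. The list had no call left without Dcr WT replicate 3, none when Dcr KO replicate 2 was left out, and 1 when Dcr WT replicate 2 was.

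Of 12 tested receptors and membrane modulators none passed in either direction by limma over the 6 arrays (4 had an unadjusted p under 0.05). The smallest adjusted p was for Acvr2b, a type II receptor for activin and Nodal (log2 difference -0.44, adjusted p = 0.0538), followed by Eng, which encodes the co-receptor endoglin (0.59, adjusted p = 0.0910). Of 23 tested Smads and their regulators 1 passed. Smad6, an inhibitory Smad that mainly restrains BMP signals, rose from 4.53 ± 0.17 (SD, n = 3) to 5.29 ± 0.31 (SD, n = 3), a log2 difference of 0.76 (adjusted p = 0.0288 from limma over genes), and kept its call only without Dcr KO replicate 3 among the 6 fits with 1 array left out. Smad2, the second Smad that Tgfbr1 phosphorylates, had a log2 difference of 0.28 (adjusted p = 0.104). Of 13 tested nuclear partners of the Smads none passed by limma (2 had an unadjusted p under 0.05), with Foxh1, the partner that guides Smads in mESCs, at -0.36 (adjusted p = 0.0708) and Jun at 0.48 (adjusted p = 0.0996). Of 15 tested genes of non-Smad signalling only Pard6a passed. It encodes a polarity protein that Tgfbr2 phosphorylates, and its log2 level fell by 1.09 (SE 0.20, limma's adjusted p = 0.0151). Map3k7, the kinase Tak1, had a log2 difference of 0.34 (adjusted p = 0.0613). The call of Pard6a was lost when either Dcr WT replicate 3 or Dcr KO replicate 2 was left out (highest adjusted p = 0.0626).

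Of 31 tested genes that TGF-beta is known to induce or repress in other cells, 9 were higher and 2 lower, and 20 did not pass, beside 6.91% higher and 6.42% lower over all genes. The list median was 0.30, against -0.02 over all genes. Tgfbi, a matrix protein first cloned as a TGF-beta response gene, rose 0.71 on the log2 scale (SE 0.12, limma's adjusted p = 0.0114) and passed in all 6 fits with 1 array left out. The smooth muscle genes Cnn1 and Acta2 rose 0.68 and 0.72. Tagln (0.30, adjusted p = 0.147 from limma) and Tpm1 (0.07, adjusted p = 0.638) of the same list did not pass, and their groups overlapped. Both were named after their values were seen. With the brightest probe set alone, the log2 difference was 1.67 for Acta2 and 1.09 for Tgfbi. Vim, which encodes vimentin, rose 1.16 from 11.28 ± 0.21 (SD, n = 3), and Cdkn1a, which encodes the cell cycle inhibitor p21, rose 1.03. Igfbp3, which TGF-beta induces in many cells, moved the opposite way and fell by 0.96 on the log2 scale (adjusted p = 0.0142). The other 5 calls, named after their values were seen, were Cdkn2b (0.61), Ccn2 (0.81), Cdh2 (1.33) and Col4a1 (0.64), all higher, and Gadd45b (-0.44), which was lower. With 1 array left out, Cdkn2b passed in 4 of the 6 fits, Ccn2 and Cdh2 in 2 each, Col4a1 in 1 and Gadd45b in 0. The 20 that did not pass went both ways. They include Klf10 (-0.18), Smad7 (-0.08), Junb (0.06), Skil (0.17), Pmepa1 (0.22) and Fn1 (0.54), also named after their values were seen. Thbs1, Mmp14, Smad2, Smad6, Ccn2, Cdkn1a, Col4a1, Vim and Cdh2 are among the study's candidate targets of the AAGUGC seed, so their direction is not independent evidence either. The 11 calls of this list were 7, 5 and 2 when Dcr WT replicate 1, Dcr WT replicate 3 and Dcr KO replicate 2 respectively were left out. Many of these genes respond to other signals as well, and signalling through the receptors was not measured here.

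**Figure D4:**
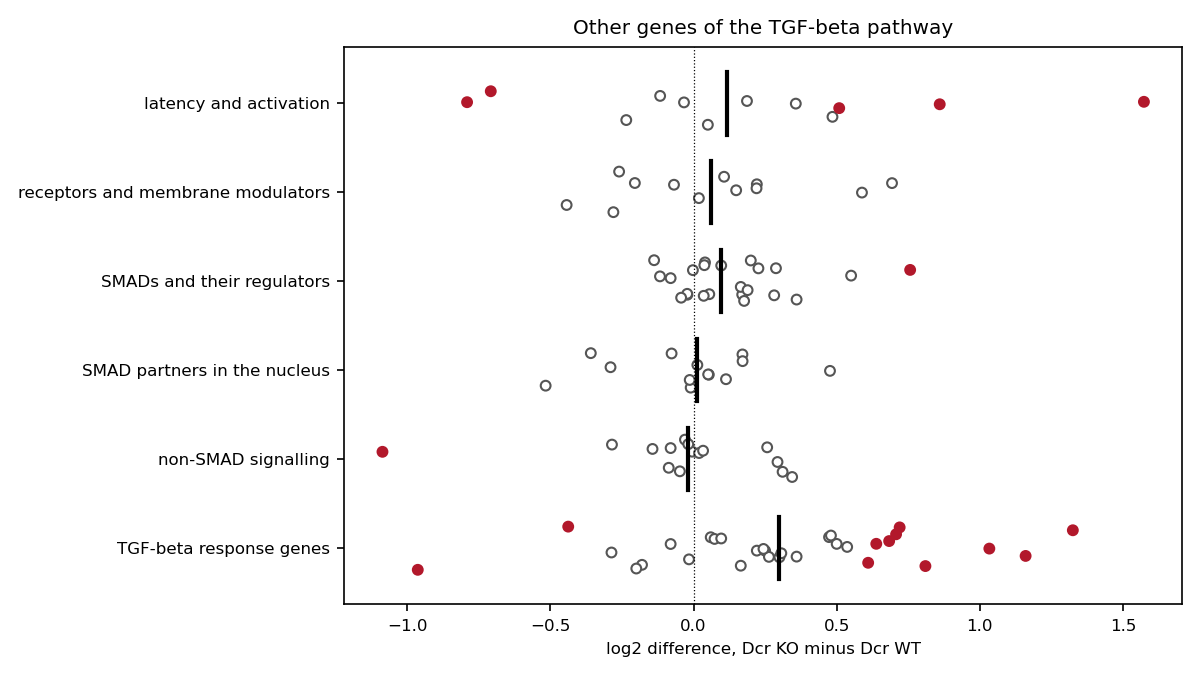
Difference on the log2 scale (Dcr KO less Dcr WT) for the tested genes of the 6 lists. Each point is a gene, filled where limma's adjusted p was under 0.05, a vertical bar marks the median of a list, and the height of a point in its row has no meaning. The response genes have the median farthest from 0, at 0.30, and the receptors and nuclear partners have no filled point.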

How the data were processed

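The log2 values that the authors deposited, which give each array's level at each probe set, were made with GCRMA 2.20.0 in R 2.11.1 per the labels. GCRMA corrects background by a sequence model, normalizes between arrays and summarises probes. The paper states that these arrays and those of chronic deletion lines, not analysed here, went through normalization jointly, but not whether the deposited values come from that run. All 6 array columns were used. Genes were named through the platform annotation (34945 probe sets with 1 symbol, 932 with several and 9160 with none here, of which the last 2 kinds were left out of gene values). Of the former, 34741 Entrez IDs were found in the RefSeq table of GRCm38.p6, used for names only.

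A gene's value is the mean log2 of its probe sets. Groups were compared in limma 3.58.1 (functions lmFit and eBayes, R 4.3.3), over all genes or all probe sets whose average across the 6 arrays reached 4, with Benjamini-Hochberg adjustment at 0.05. Probe sets of 1 gene were compared with diffSplice, over 4220 genes with at least 2 tested probe sets, where 0.972% passed. The tests were checked on 10 simulations with independent noise and with rises only, a setting simpler than the data. Of the calls, 5.65% were unchanged genes in the gene fit and 17.2% in diffSplice. In that setting diffSplice was too liberal, so a call from it is taken as less certain. A gene that did not pass diffSplice is not thereby shown to have probe sets that change alike. By permutation, 3 arrays against 3 cannot give a two-sided p below 0.1.

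The 10 genes, the lists and the rules were chosen with earlier results of these data known. Named list genes are those that passed, at most the 6 with the smallest adjusted p, or the 2 smallest where fewer than 2 passed. For each of the 10 genes that passed, the 3 genes nearest by root mean square distance are named. Alternatives were other minimums, other ways of joining probe sets, quantile normalization, median centring, an intensity trend, the replicate number as a block and each array left out. Tables and figures were made with Python 3.11.15 and pandas 2.3.3.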

Additional observations from a re-analysis of the deposited data

How the results depend on the processing

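Of the 10 genes, 1 passed by limma in the main setting. It was 3 with no minimum, 5 with the brightest probe set, 2 with an intensity trend and 4 with only probe sets above the minimum, and 0 to 2 with 1 array left out. The 5 calls among probe sets were 0 to 6 with 1 array left out, none when Dcr WT replicate 3 was left out and none when Dcr KO replicate 2 was, where the calls over all probe sets also fell, to 246 higher and 52 lower and to 143 higher and 23 lower (881 and 576 with all arrays). No gene had probe sets that differed in their change, 0 in every fit with 1 array left out and 1, Tgfbr2, with no minimum, where 2 of its 3 probe sets are near background and can show little change. The 18 list calls were 2 to 14 with 1 array left out. By list they were 0 to 4 for latency and activation, 0 to 1 for receptors, 0 to 1 for Smads, 0 for nuclear partners, 0 to 2 for non-Smad signalling and 2 to 9 for response genes. Against 0 calls, receptors had 1 with no minimum, the brightest probe set, the median of probe sets, quantile normalization or only probe sets above the minimum. Nuclear partners had 2 with no minimum and 1 with the brightest probe set or only probe sets above the minimum. The Smads had 0 with a minimum of 5 and 2 with the brightest probe set or only probe sets above the minimum, and non-Smad signalling had 2 with the brightest probe set. The cause was not tested for any of these.

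The labels number the replicates without saying whether same-numbered arrays form pairs, and the main fits did not pair them. The correlations of deviations between same-numbered arrays were -0.22, -0.02 and 0.03. Between arrays with different numbers they were -0.23 to 0.31. With 3 arrays per group these values cannot settle whether the arrays are paired. With the replicate number as a block, 0 probe sets of the 10 genes passed (1 gene value still did), and the list calls were 10 in all, 2 for latency and activation, 0 for Smads and 7 for response genes. Over all genes the block left 354 calls higher and 243 lower, against 607 and 564, and over all probe sets 221 and 43. The gene value of Dicer1 stayed past the threshold in every setting run, with log2 differences of -1.56 to -1.15 with 1 array left out. Among the 10 genes and their probe sets, small log2 differences changed sign in 2 cases, with other list genes and markers not counted. That of the bright Smad3 probe set ran from -0.0233 (without Dcr WT replicate 3) to 0.277 with 1 array left out, and that of the brightest Smad4 probe set from -0.133 to 0.00667 (without Dcr KO replicate 3). Over all genes, leaving out 1 array gave 220 to 465 calls higher and 137 to 376 lower, and over all probe sets an intensity trend gave 1160 and 927. The 41 calls of diffSplice over all genes were 1 to 50 with 1 array left out, 225 with no minimum and 6 with the block. An intensity trend was not run for diffSplice.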
